A study of Homo sapiens with 6 samples.

Results

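The high mobility group (HMG) genes *HMGA1*, *HMGB1*, *HMGB2*, *HMGB3*, *HMGN1*, *HMGN2*, *HMGN3*, *HMGN4* and *HMGN5* were followed in RNA immunoprecipitation sequencing (RIP-seq) of WaGa cells, 9 of the 60655 genes in the count table. The list starts from *HMGA1*, which was picked for its high fold change between IGF2BP3 immunoprecipitation (IP) and IgG IP in these libraries. The other 8 were added by name as genes of the same protein superfamily. Values of that contrast are therefore given here as a description, with standard errors, and calls of the 9 genes are stated without weight. All 9 passed the filter on low counts.

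WaGa is an established Merkel cell carcinoma (MCC) cell line that carries Merkel cell polyomavirus. The cells were wild type and untreated. RNA was recovered from 3 IPs with an IGF2BP3 antibody (labelled IMP3, another name of the protein) and from 3 control IPs with IgG, with replicates numbered 1 to 3 in both groups. All material came from a single cell line, and the labels call the replicates independent without saying whether they were separate cultures. Library totals ran from 9758759 to 14886414 counts. Both replicate 1 libraries stood apart: their deviations from the group mean correlated at 0.57 with each other and at -0.42 to -0.36 with replicates 2 and 3 of the other group, across genes. Deviations from a group mean cancel within each gene, so the negative values partly follow from the positive one and add little to it. Values without both replicate 1 libraries are given for *HMGA1*, *HMGB1*, *HMGN1*, *HMGN2*, *HMGN3* and *HMGN5* and, as counts, with the alternatives. Of 12 Merkel cell markers 11 passed the filter, among them *KRT20* (430.4 to 627 TPM, the authors' length-normalized transcript levels, in the IgG IP) and *ATOH1* (338 to 539 TPM), whereas *NEUROD1* had 0 to 2 counts. *PTPRC*, *CD3E* and *CDH5* had 0 counts in all 6 libraries. Of the fibroblast markers *DCN* alone passed the filter, at 35.8 to 54.1 TPM in the IgG IP.

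HMG proteins are abundant, small nuclear proteins that bind DNA or nucleosomes with little sequence preference and bend, open or loosen chromatin. They form the HMGA proteins, which bind the minor groove of AT-rich DNA through AT-hooks, the HMGB proteins, which bend DNA with HMG-box domains, and the HMGN proteins, which bind nucleosome core particles and compete with linker histones. HMGA1 is scarce in most adult tissues and high in embryos and many tumors. IGF2BP3 is an oncofetal RNA-binding protein that recognizes CA-rich elements, and the IGF2BP proteins are also known as readers of N6-methyladenosine, a mark that is often placed within GGACT. The question of the IP comparison was which transcripts come down with IGF2BP3 above the level that comes down with IgG.

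The 9 genes lie apart from each other on 6 chromosomes (GRCh38, whole gene with exons and introns). *HMGA1* (ENSG00000137309.20) spans chr6:34236873-34246231 (plus strand), and its canonical transcript has 6 exons. *HMGN3* (chr6:79201245-79234689, minus strand) and *HMGN4* (chr6:26538366-26546933, plus strand) are on the same chromosome. *HMGB1* lies at chr13:30456704-30617597 (minus strand), *HMGB2* at chr4:173331376-173334432 (minus strand) and *HMGB3* at chrX:150980509-150990771 (plus strand). *HMGN1* lies at chr21:39342315-39349647 (minus strand), *HMGN2* at chr1:26472440-26476642 (plus strand) and *HMGN5* at chrX:81113699-81201913 (minus strand).

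The sequences shown here are the densest clusters of the CA-rich motif, to show the letters behind the motif counts in *HMGA1* and in the members with the most and the fewest matches per kb. The letters CACA were searched on the sense strand of each canonical transcript (GENCODE version 44, GRCh38), with overlapping matches counted, and the 30-base window within an exon that held the most matches was taken. Capitals mark CACA.
HMGA1: tcaccacCACActaCACAgCACAccagccg
HMGB1: caaatttgCACACAccgtaCACAgcttaag
HMGN2: ttgaCACACAtggccaccttggCACAaaag
HMGN1: cagcttaacattcCACAgatggggggttag
These windows lie in the 3′ untranslated regions, *HMGA1* at chr6:34245031-34245060 on the plus strand (exon 6 of 6), *HMGB1* at chr13:30458073-30458102 on the minus strand (exon 5 of 5), *HMGN2* at chr1:26475429-26475458 on the plus strand (exon 6 of 6) and *HMGN1* at chr21:39342815-39342844 on the minus strand (exon 6 of 6). The first 3 windows hold 3 matches each, and the *HMGN1* window holds the 1 match of its transcript. A 30-base stretch with at least 3 matches occurred in 28.9% of the canonical transcripts of tested genes.

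*HMGA1* was the HMG transcript that stood apart. In the IgG IP its normalized CPM (counts scaled to library size after TMM normalization) were 177 for replicate 1, 133 for replicate 2 and 146 for replicate 3. In the IGF2BP3 IP they were 484, 437 and 410.1. All IGF2BP3 IP libraries lay above all IgG IP libraries, and the lowest of them was more than 2-fold the highest IgG IP library. The mean was 443 ± 37.2 (SD, n = 3) against 152 ± 22.7 (SD, n = 3). The edgeR log2 fold change was 1.54 (standard error 0.12), a 2.91-fold difference. CPM are shares of a library, so more of a transcript and less of the remaining RNA cannot be told apart. Both IPs were from the same untreated cell line, so the contrast describes recovery in the IP and not the level of a transcript in the cells.

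**Figure D1:**
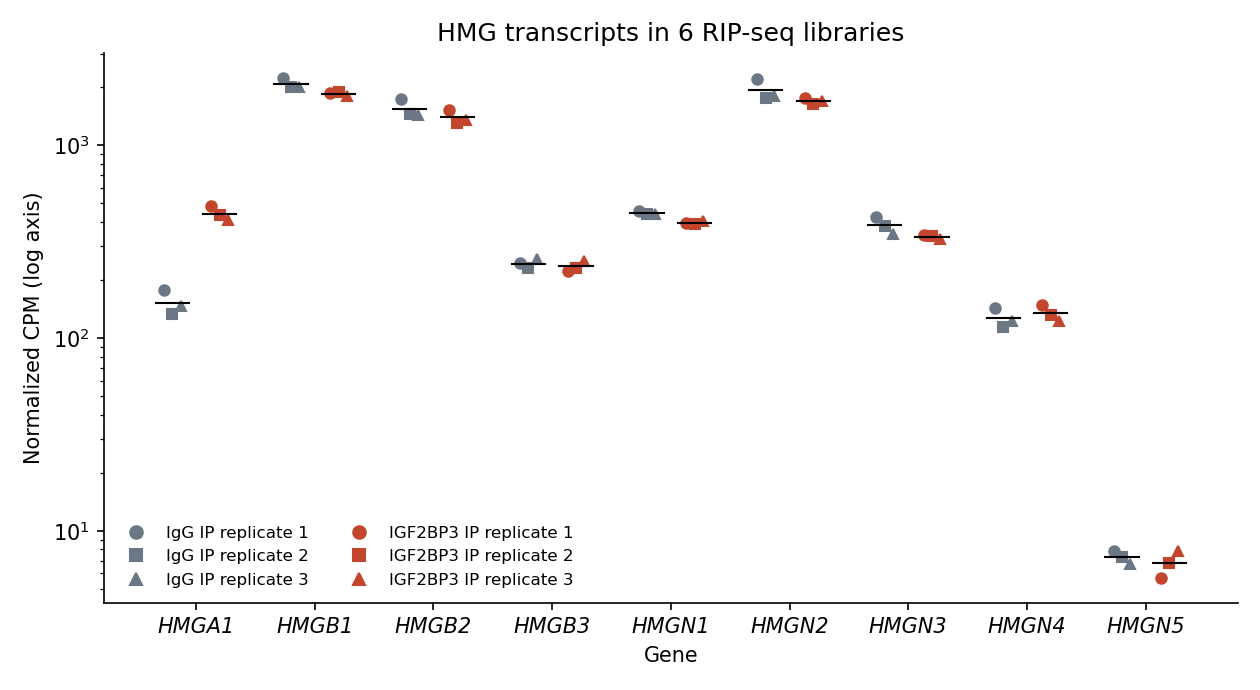
Normalized CPM (log axis) of the 9 HMG genes in the 3 IgG IP (gray) and 3 IGF2BP3 IP (red) libraries, with the replicate as the symbol and the group mean as a line. *HMGA1* lies at 133 to 177 in the IgG IP and at 410.1 to 484 in the IGF2BP3 IP, whereas for the other genes the means of both groups lie close together.

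Of the 9 genes, 1 (*HMGA1*) was past the thresholds of a 1.5-fold change and an edgeR p-value under 0.05 after Benjamini-Hochberg adjustment, and 0 were lower by the same thresholds. Among all 14507 tested RNAs, 1.16% were enriched and 0.00% lower (0 RNAs, with 59 at least 1.5-fold lower at an unadjusted p-value under 0.05). *HMGA1* was also the 1 gene of the 9 with a fold change of at least 1.5 regardless of p-value, as were 5.30% of tested RNAs. With the replicate number as a block, *HMGA1* was likewise the 1 gene called, where 3.56% of tested RNAs were enriched. Since *HMGA1* was chosen on this contrast, nothing is read from its call. The value nearest to *HMGA1* within the family was that of *HMGN4*, at a log2 fold change of 0.09 (standard error 0.11), well inside the 1.5-fold minimum of 0.58. The log2 fold changes of the 8 genes other than *HMGA1* ran from -0.20 to 0.09, with a median of -0.16, against a median of -0.01 over all tested RNAs. For all 8, the 95% confidence interval of the log2 fold change lay within 1.5-fold in either direction, the widest being that of *HMGN5*, from -0.49 to 0.31.

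**Figure D2:**
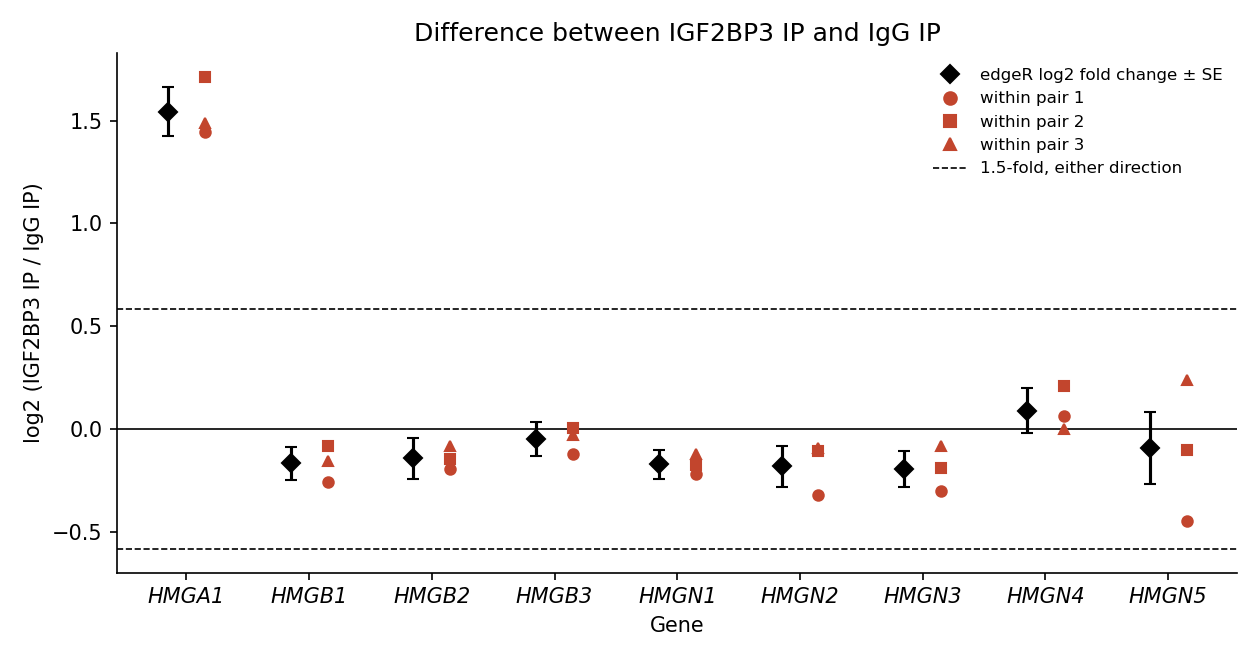
log2 ratio of IGF2BP3 IP over IgG IP for the 9 HMG genes. Black diamonds are edgeR log2 fold changes with their standard errors, red symbols the differences within the pairs of equal replicate number, and dashed lines 1.5-fold in either direction. *HMGA1* lies at 1.54, and the others between -0.20 and 0.09.

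Within the pairs of equal replicate number, *HMGA1* differed by 1.45, 1.71 and 1.49 on the log2 scale in pairs 1 to 3. Without both replicate 1 libraries, a choice made after seeing the data, the log2 fold change of *HMGA1* was 1.60 (standard error 0.06). Leaving out IGF2BP3 IP replicate 2 kept it at 1.55 but ended its call, and 0 RNAs of the whole table passed in that fit. On log2(TPM + 1), limma-trend gave 1.69 and no call.

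The HMGB genes were not higher in the IGF2BP3 IP. *HMGB1* encodes an abundant DNA-bending protein that also acts as an alarm signal outside the cell. Its normalized CPM were 2241, 2008 and 2008 with IgG and 1874, 1893 and 1801 with IGF2BP3. Every IGF2BP3 IP library thus lay below every IgG IP library, by a small margin, at a log2 fold change of -0.17 (standard error 0.08). *HMGB2*, a close relative found mainly in dividing cells, had 1742, 1454 and 1439.8 CPM with IgG and 1522, 1312 and 1359.9 CPM with IGF2BP3. Its groups overlapped, at a log2 fold change of -0.14 (standard error 0.10). *HMGB3*, a relative known from early blood cells, had 244, 231 and 257 CPM with IgG and 224, 232 and 251 CPM with IGF2BP3. These values interleaved, and the log2 fold change was -0.05 (standard error 0.08).

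The HMGN genes had values of the same kind. *HMGN2*, the most abundant of the 9 per length in both IPs, had 2217, 1773 and 1815 CPM with IgG and 1770.3, 1647 and 1698 CPM with IGF2BP3. Its log2 fold change was -0.18 (standard error 0.10). The groups did not overlap, but the highest IGF2BP3 IP library (1770.3 CPM) nearly reached the lowest IgG IP library (1773 CPM). *HMGN1*, located in the Down syndrome region of chromosome 21, had 458, 443 and 439 CPM with IgG and 394, 392 and 403 CPM with IGF2BP3. Relative to its mean it varied least of the 9 between replicates, with a coefficient of variation of 2.29% in the IgG IP and 1.54% in the IGF2BP3 IP (n = 3 each), and its groups were separate at a log2 fold change of -0.17 (standard error 0.07). *HMGN3* had 423, 384 and 349 CPM with IgG and 343, 337 and 329 CPM with IGF2BP3. It was the lowest of the 9 by log2 fold change, at -0.20 (standard error 0.09), again without overlap.

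*HMGN4*, a gene that arose as a retrotransposed copy of *HMGN2*, had 143, 114 and 123 CPM with IgG and 149, 132 and 123 CPM with IGF2BP3. It was the only gene other than *HMGA1* with a positive value, and its groups overlapped. *HMGN5*, which encodes the HMGN protein with the longest acidic tail, was rare, with 68 to 109 counts per library. Its CPM were 7.80, 7.30 and 6.69 with IgG and 5.71, 6.80 and 7.88 with IGF2BP3, with the lowest and the highest value both in the IGF2BP3 IP. Its log2 fold change was -0.09 (standard error 0.18), the least precise of the 9. Without both replicate 1 libraries it turned to 0.07 (standard error 0.19).

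In all, 4 of the 9 genes (*HMGB1*, *HMGN1*, *HMGN2* and *HMGN3*) had every IGF2BP3 IP library below every IgG IP library, as had 8.69% of the tested RNAs. *HMGA1* had the reverse arrangement, shared by 12.0% of tested RNAs. A negative log2 fold change was seen for 7 of the 9 genes and for 51.1% of tested RNAs. Each of the 4 separated lower genes had its largest difference in pair 1, for *HMGN2* -0.32 against -0.11 and -0.10. Without both replicate 1 libraries, a choice made after seeing the data, *HMGB1* stood at -0.12 and *HMGN1* at -0.15. *HMGN2* stood at -0.10 and *HMGN3* at -0.14 in that fit, and the adjusted edgeR p-values ran from 0.076 to 0.19. None of the 4 genes reached a 1.5-fold change with or without the replicate block. With the block their adjusted edgeR p-values were under 0.05, which they were not without it. With the block and the GC correction described further on, this held for *HMGN1* and *HMGN2*. The share of all tested RNAs under 0.05 at any fold change was not counted, so nothing is read from these p-values. In the limma-trend fit on log2(TPM + 1), which changes the unit, scaling and model together, *HMGB1* stood at 0.01, *HMGN1* at -0.02, *HMGN2* at 0.0034 and *HMGN3* at -0.06, all below the median of tested RNAs on that scale, 0.11.

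The within-library ratio of *HMGA1* to another HMG gene needs no scaling to library size. Of the counts on the 9 genes, *HMGA1* held 2.32%, 2.03% and 2.22% with IgG (replicates in order), and 7.15%, 6.84% and 6.42% with IGF2BP3. The 9 genes together held a similar part of every library, from 0.645% to 0.724% of all counts. Per count on *HMGN4* there were 1.24, 1.17 and 1.19 counts on *HMGA1* with IgG and 3.24, 3.32 and 3.34 with IGF2BP3. Per count on *HMGN1*, the ratio passed from 0.300 to 0.387 in the IgG IP to 1.02 to 1.23 in the IGF2BP3 IP, so that *HMGA1* had fewer counts than *HMGN1* in all IgG IP libraries and more in all IGF2BP3 IP libraries. With each of the 8 genes as denominator, the ratio in every IGF2BP3 IP library was above that in every IgG IP library. The mean ratio was 2.75-fold higher with *HMGN4* and 3.33-fold higher with *HMGN3*, the lowest and highest of the 8. These ratios share the numerator and are not independent of each other. They also restate the contrast on which *HMGA1* was chosen, against genes that changed little, so nothing further is read from their separation.

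**Figure D3:**
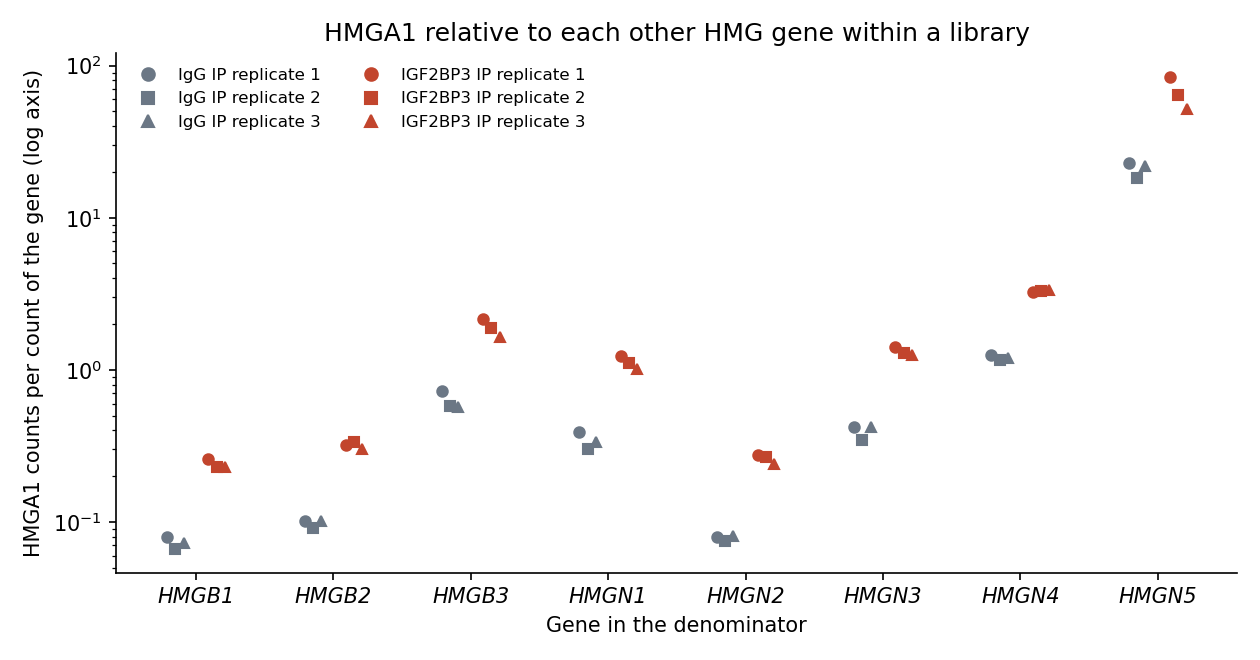
Counts on *HMGA1* per count on each other HMG gene in the same library (log axis), for the IgG IP (gray) and the IGF2BP3 IP (red), with the replicate as the symbol. For each of the 8 genes the red points lie above the gray points, for *HMGN4* at 3.24 to 3.34 against 1.17 to 1.24.

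Levels of different genes were compared as TPM, which account for transcript length. All 6 libraries were IPs, with no library of total RNA, so these levels need not match those in the cells. In the IgG IP the order was *HMGN2*, *HMGB1*, *HMGB2*, *HMGN3*, *HMGN1*, *HMGB3*, *HMGA1*, *HMGN4* and *HMGN5*. *HMGN2* had 2317 ± 194 TPM (SD, n = 3) and *HMGB1* 1701 ± 202 TPM (SD, n = 3), and their libraries did not overlap. *HMGB2*, at 1399 ± 149.6 TPM (SD, n = 3), overlapped *HMGB1*. *HMGN3* followed at 644 ± 76.9, *HMGN1* at 442 ± 90.5 and *HMGB3* at 175 ± 40.5 TPM (SD, n = 3 each), without overlap between neighbors. *HMGA1*, with 84.7, 85.1 and 100.1 TPM, overlapped *HMGN4*, with 69.5, 80.8 and 87.4 TPM. *HMGN5* was lowest, at 12.9 ± 1.32 TPM (SD, n = 3). Among tested RNAs, the mean IgG IP level of *HMGA1* was at the 90.2nd percentile and that of *HMGN2* at the 99.7th. In the IGF2BP3 IP, *HMGA1* had 279, 312 and 287 TPM and ranked above *HMGB3*, with 137, 205 and 228 TPM, and the other 7 genes kept their ranks.

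**Figure D4:**
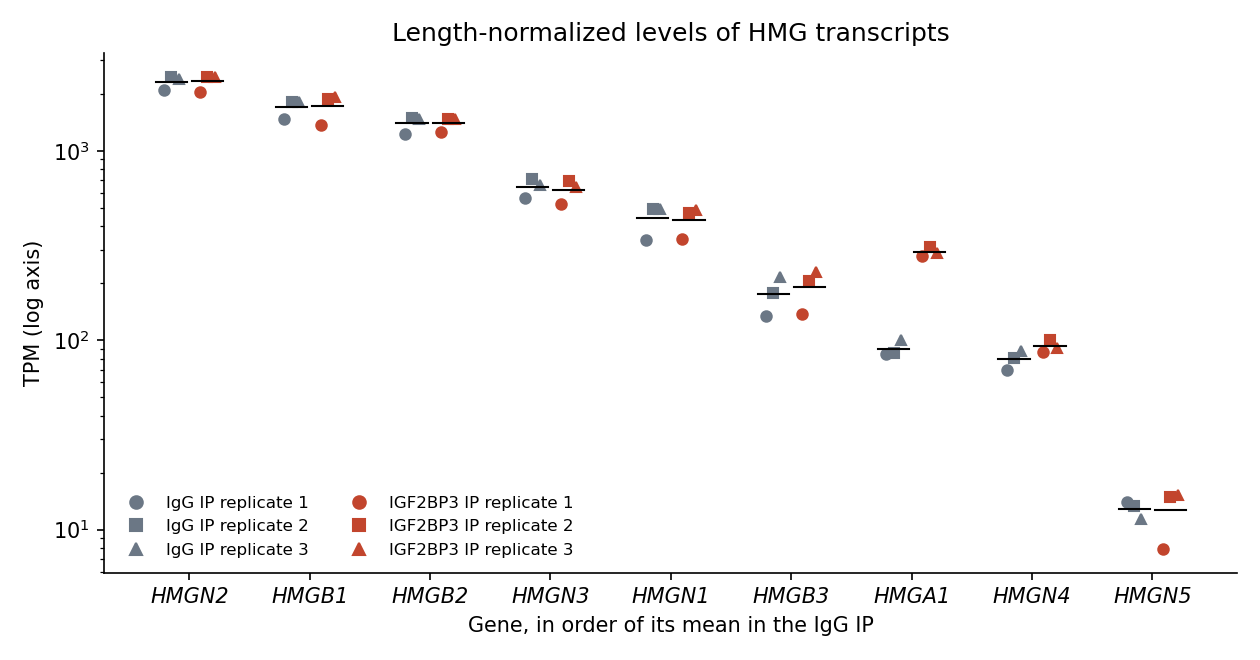
TPM (log axis) of the 9 HMG genes, ordered by their mean in the IgG IP, for the IgG IP (gray) and IGF2BP3 IP (red), with the replicate as the symbol and the group mean as a line. Levels fall from 2317 TPM for *HMGN2* to 12.9 TPM for *HMGN5* in the IgG IP, and *HMGA1* moves from the seventh to the sixth place in the IGF2BP3 IP.

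Across the whole table, 17 tested RNAs had a larger log2 fold change than *HMGA1*. All of them were rarer, and none of the 1523 RNAs with a higher mean IgG IP CPM than *HMGA1* exceeded it. The highest log2 fold change among those 1523 was 0.93, that of the tubulin gene *TUBA1B*. The 5 tested genes nearest to *HMGA1* over the 6 libraries were *FOXP3* (0.17), *DBNDD1* (0.21), *TPP1* (0.23), *PLEKHG2* (0.25) and *SHISA5* (0.26). Nearness was the root mean square difference of centered log2 CPM, taken after a small constant was added to the CPM. All 5 were rarer than *HMGA1*, the most abundant being *SHISA5*, at 16.1 CPM in the IgG IP and 34.3 in the IGF2BP3 IP. *FOXP3* was the rarest, at 0.597 and 2.7 CPM. The added constant shrinks the differences of genes this rare. The fitted log2 fold change of *FOXP3* was 2.15 (standard error 0.29), against 1.54 for *HMGA1*. *TPP1* stood at 1.88, *PLEKHG2* at 1.47, *DBNDD1* at 1.30 and *SHISA5* at 1.09.

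*HMGA1* differed from the other 8 genes in base composition, a transcript feature that was not itself used to choose the genes. Its canonical transcript of 1920 bases has 61.6% GC, higher than in 90.3% of tested genes. The other 8 ranged from 33.7% (*HMGN5*) to 44.4% (*HMGN1*), all below the median of 47.7%. GC content also moved with the fold change over the whole table, so it is not independent of the choice of *HMGA1*. The median log2 fold change was -0.18 for tested RNAs under 35% GC, -0.12 from 35% to 40%, -0.06 from 40% to 45%, and 0.20 from 60% to 65%, the bin of *HMGA1*. In that bin, 6 of 1501 RNAs had a larger log2 fold change than *HMGA1* and 45 were enriched. After each library was corrected for GC content, the log2 fold change of *HMGA1* was 1.33 (standard error 0.13) and its call held. *HMGB1* stood at -0.07 and *HMGB2* at -0.07 under that correction, *HMGN1* at -0.16, *HMGN2* at -0.16 and *HMGN3* at -0.15, and *HMGN5* turned to 0.06. What GC content contributes to these values was not tested beyond this correction.

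**Figure D5:**
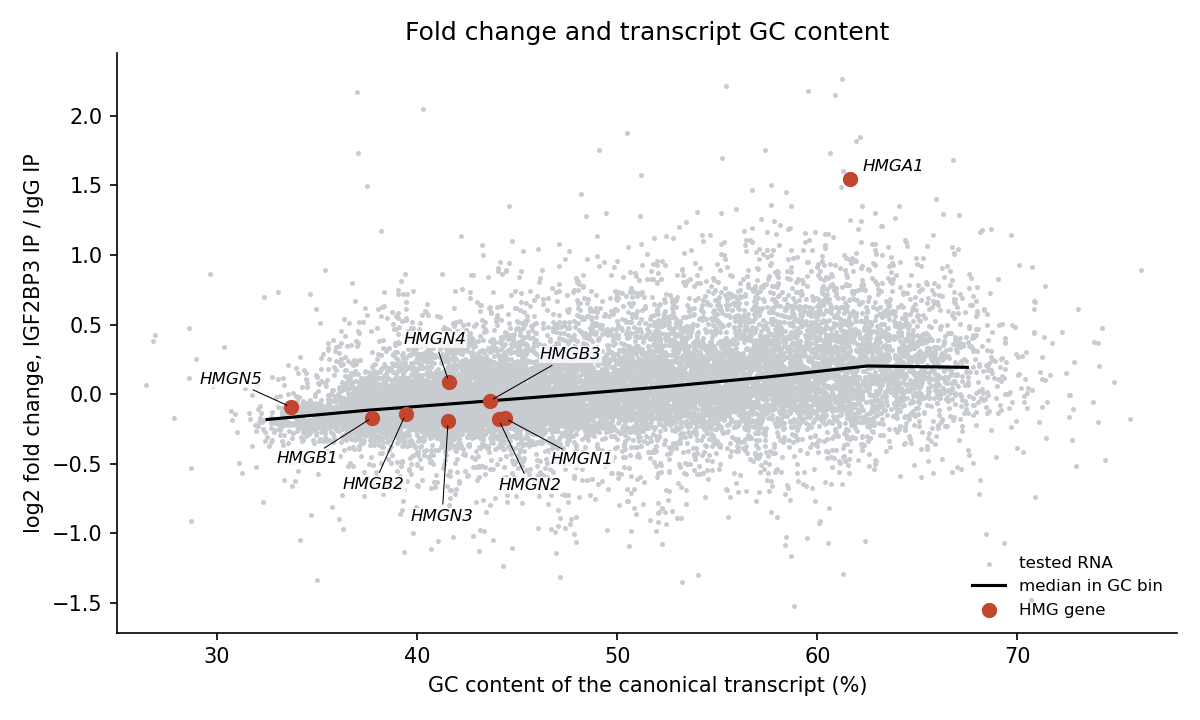
log2 fold change (IGF2BP3 IP over IgG IP) against GC content of the canonical transcript in percent, for all tested RNAs (gray), the 9 HMG genes (red) and the median in each GC bin (line). The line rises from -0.18 under 35% GC to 0.20 between 60% and 65%, and *HMGA1* lies at 61.6% GC and 1.54 while the other 8 genes lie at 33.7% to 44.4% GC, near the line.

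The *HMGA1* transcript holds 8 CACA matches, or 4.17 per kb, at the 46.3rd percentile of tested transcripts, whose median was 4.30 per kb. *HMGN2* had 6.19 per kb (84.1st percentile) and *HMGB1* 5.68 (77.8th percentile). *HMGN1*, with 0.787 per kb, was at the 2.60th percentile. ACACA, each match of which contains a CACA match, was found 3 times in *HMGA1* (1.56 per kb, 74.9th percentile), 6 times in *HMGN2* (3.09 per kb, 95.5th percentile) and 0 times in *HMGN1* and *HMGN3*. GGACT was found 2 times in *HMGA1* (1.04 per kb, 58.7th percentile) and 2 times in *HMGB2* (1.39 per kb, 75.5th percentile). Of all canonical transcripts of tested genes, 97.8% hold CACA, 84.2% ACACA and 87.0% GGACT. A match is a description of the letters and does not show a bound site. Of the 2 GGACT matches in *HMGA1*, 1 lies in the 5′ untranslated region in exon 1, at chr6:34236902-34236931 on the plus strand, shown here with the motif in capitals.
HMGA1 exon 1: gctcctctaattgGGACTccgagccggggc

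The coding sequences are short throughout. That of *HMGA1* has 321 bases, followed by a 3′ untranslated region of 1347 bases, near the middle of tested genes (48.7th percentile). *HMGB1* has the longest 3′ untranslated region of the 9, at 4653 bases (89.4th percentile), and *HMGN3* the shortest, at 443 bases. Between members, the coding sequences of *HMGN2* and *HMGN4*, of 270 bases each, are 86.3% identical, and those of *HMGB1* and *HMGB2* 75.3%. The longest stretch of exact identity between any pair of canonical transcripts among the 9 was 29 bases (*HMGB1* and *HMGB2*), followed by 20 bases (*HMGN2* and *HMGN4*). Both are short beside the 150-base reads.

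HMG genes are known for many processed pseudogenes, which can take reads from their parents. The table lists 157 pseudogenes named after the 9 genes, of which 47 had at least 1 count. *HMGA1* has 8, with 4 to 20 counts per library in sum, between 0.0694% and 0.799% of the counts on *HMGA1* and its pseudogenes. *HMGB1* has 48, with 679 to 1013 counts in sum, or 3.18% to 3.48%, and the largest part fell on *HMGB1P6*, with 480 to 652 counts. *HMGN2* has 38, with 300 to 480 counts in sum, or 1.32% to 1.85%. No single pseudogene reached 10% of its parent in any library. In the TPM values the pseudogenes of *HMGB1* and *HMGN2* took more. They held 18.9% to 22.3% of the summed TPM of *HMGB1* and its pseudogenes, and 11.4% to 20.2% for *HMGN2*. The cause of the gap between the shares by count and by TPM was not tested. For *HMGA1* the TPM share was 0.00%, 5.08% and 2.90% with IgG and 0.13%, 0.65% and 0.91% with IGF2BP3. Adding all pseudogene counts to their parents gave *HMGA1* a log2 fold change of 1.54.

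Genes that overlap a member in the annotation held few counts. *MIR6835*, within *HMGA1* on the same strand, had 0 to 2 counts per library. *HMGN3-AS1*, antisense to *HMGN3*, had 76 to 141 counts, against 3906 to 5732 on *HMGN3*, and a log2 fold change of -0.32 (standard error 0.16). Whether the counting used the strand is not stated in the sources used here, so reads of *HMGN3* and *HMGN3-AS1* cannot be told apart where they overlap.

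Among relatives of the 9 genes in other lists, no gene was called without the replicate block and 1, *CIC*, with it. Of all tested RNAs, 1.16% were enriched without the block and 3.56% with it, so nothing is read from this count. The block rests on the replicate numbers in the labels. *HMGA2*, the second HMGA gene, and the testis gene *HMGB4* had 0 counts in all 6 libraries, which allows up to 3 counts, or 0.307 CPM in the smallest library. The other 4 HMG genes were positive without passing the thresholds, with a median log2 fold change of 0.11. *HMG20B*, at 0.08 (standard error 0.14), was the lowest. Of 13 genes for other HMG-box proteins 12 were tested, and 0 were enriched and 0 lower without the block, with a median of 0.01. The highest was *CIC*, which encodes a transcriptional repressor, at 0.67 (standard error 0.23; edgeR adjusted p = 0.26), with overlapping groups and 65.8% GC. With the replicate block it was enriched, at 0.67 (standard error 0.07; edgeR adjusted p = 3.1e-07), and it was higher in 3 of 3 pairs. The lowest was *TFAM*, which packages mitochondrial DNA, at -0.20 (standard error 0.08).

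Linker histones compete with HMGN proteins for nucleosomes. Of the 7 listed genes 6 were tested, 0 were called, and the 6 values were all negative with overlapping groups, from -0.38 (standard error 0.21) for *H1-3* to -0.11 (standard error 0.37) for *H1-4*. *H1-5* was high in replicate 1 of both groups, at 4249 CPM with IgG and 3732 CPM with IGF2BP3, against 1368 to 1634 CPM in the other 4 libraries. Its log2 fold change was -0.18, with a standard error of 0.46 without the replicate block and 0.05 with it, and the pairs differed by -0.19, -0.22 and -0.12. With the block its edgeR adjusted p was 0.015, at a change under 1.5-fold. Of 8 receptors and partners of extracellular HMGB1, *CXCR4* (-0.18, standard error 0.10) and *CXCL12* (-0.0034, standard error 0.30) were tested, and 0 were called. *TLR2* and *TLR9* had 0 counts in all libraries, and *AGER*, *TLR4*, *HAVCR2* and *TREM1* had at most 5. Among the IGF2BP genes themselves, *IGF2BP3* had 1334 to 2060 counts per library and a log2 fold change of -0.04 (standard error 0.07), whereas *IGF2BP1* had at most 1 count and *IGF2BP2* had 0.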

How the data were processed

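The 6 RIP-seq libraries of WaGa cells were grouped by their sample labels (IgG IP, n = 3, and IGF2BP3 IP, n = 3), with 9758759 to 14886414 counts each. The authors sequenced 150-base paired-end reads, aligned them to GRCh38 with STAR 2.7.9a, and quantified transcripts with RSEM and GENCODE version 37. The deposited tables hold unnormalized counts, TPM and FPKM of each gene. Which tool produced the counts is not given in the sources used here.

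Genes were filtered with filterByExpr, scaled with TMM and fitted with the quasi-likelihood method of edgeR 4.0.16 (R 4.3.3) over 14507 genes, with condition as the only term. RNAs were called at 1.5-fold or more with a p-value under 0.05 after Benjamini-Hochberg adjustment. Standard errors were derived from the fitted change and its F statistic. P-values measure the spread between these libraries only. The fit was tested on simulated data. Levels were compared as TPM, with FPKM as an alternative. The DESeq2 1.42.0 and limma 3.58.1 alternatives, other scalings, no filter, a GC correction (loess, span 0.5), summed pseudogene counts, single libraries left out and a replicate block were run. The libraries were taken as pairs by the replicate numbers in the labels. Deviations from the group means correlated at 0.57, 0.28 and 0.23 across genes between same-numbered libraries. Cross pairs of replicates 2 and 3 correlated at 0.28 and 0.27. These correlations show replicate 1 standing apart in both groups and cannot decide how replicates 2 and 3 pair. Results with the replicate block rest on the labels for that.

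Transcript features were read from GENCODE version 44 (GRCh38, canonical transcripts), where 60481 of 60655 identifiers were found. Coordinates are from that annotation. Genes named are the 9 members, their pseudogenes and overlapping genes, the 5 genes nearest to *HMGA1*, and the highest, lowest and called genes of fixed lists. Others, such as *TUBA1B*, *H1-5* and the genes with few counts, were named after their values were seen. The members and lists were chosen with earlier results of these data known. Some genes of these lists are not reported here.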

Additional observations from a re-analysis of the deposited data

How the results depend on the processing

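*HMGA1* was higher in the IGF2BP3 IP under all 17 alternatives, with log2 fold changes from 1.33 to 1.70, and past the thresholds in 14 of them. The GC correction moved it from 1.54 to 1.33, and to 1.34 with the replicate block. The number of the 9 genes past the thresholds was 1, and 0 with limma-trend on log2(TPM + 1) or log2(TPM + 0.1). Leaving out one library gave 0 or 1 of the 9 genes, 0 without IGF2BP3 IP replicate 2, and 1.45 to 1.67 for *HMGA1*. The cause of the lost calls was not tested. With the replicate block *HMGA1* was at 1.55, and the block changed no call among the 9, whereas among the listed relatives it added *CIC*. For the 8 other genes, 0 of 136 combinations of gene and alternative passed the thresholds, with values from -0.26 to 0.23, and 15 moved by more than the spread between replicates. The order of levels in the IgG IP was the same for all 9 genes with FPKM and without any one library, and for 7 in the IGF2BP3 IP.

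The background of 169 enriched RNAs became 281 with DESeq2 and 359 with edgeR, both over the 29184 RNAs with at least 1 count, 517 with the replicate block, 82 with the GC correction, 273 with the GC correction and replicate block, 0 with limma-trend on either TPM scale (476 and 617 higher by 1.5-fold where the unadjusted p-value was under 0.05), and 466 without both replicate 1 libraries, the last chosen after seeing the data. Leaving out one library gave 0 to 244, with 0 without IGF2BP3 IP replicate 2, 7 and 19 without IgG IP replicates 3 and 2, and 23 without IGF2BP3 IP replicate 3. Depth limits *HMGN5*, at 68 to 109 counts per library.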
